A study of Mus musculus with 6 samples.

Results

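Liver RNA was examined for 9 genes that encode the main metabolic nuclear receptors of the hepatocyte. The genes are Ppara, Rxra, Nr1h3, Nr1h4, Nr0b2, Nr1i2, Nr1i3, Rora and Nr3c1. They were chosen by name, through the single gene symbol that the platform annotation gives a probe set, and all 9 were among the 15045 genes measured. RefSeq places them on chromosomes 1 (Nr1i3), 2 (Rxra and Nr1h3), 4 (Nr0b2), 9 (Rora), 10 (Nr1h4), 15 (Ppara), 16 (Nr1i2) and 18 (Nr3c1). The arrays were exon-level Affymetrix arrays, on which the exons of a gene are read by separate probe sets, and the values are log2 signals. Total RNA came from snap-frozen liver of male mice aged 6 to 8 weeks. The control group (3 samples) is labelled wild type. The mutant group (3 samples) is labelled Dhx32-/-, homozygous for a mutation of the DEAH-box helicase gene Dhx32, and the study asked which transcripts and exons differ between the groups. The strain background, the nature of the mutation and the time of day of dissection are not given in the sources used here. The labels number the samples of a group without saying that each came from a separate mouse, so p-values measure the spread between these samples.

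Nuclear receptors are transcription factors that bind small lipid-soluble molecules and switch whole metabolic programmes. PPARα (Ppara) senses fatty acids and drives their oxidation during fasting. LXRα (Nr1h3) senses oxysterols, FXR (Nr1h4) senses bile acids, and SHP (Nr0b2), which lacks a DNA-binding domain, is induced by FXR and represses bile acid synthesis. PXR (Nr1i2) and CAR (Nr1i3) sense foreign compounds and induce cytochrome P450 genes. RXRα (Rxra) is the partner with which most of these receptors bind DNA as a pair. RORα (Rora) activates clock genes through sites shared with the repressor Rev-erbα (Nr1d1), and the glucocorticoid receptor (Nr3c1) carries the signal of the stress and fasting hormone.

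The arrays differed among themselves in ways that bear on these genes. Dhx32 itself, averaged over its 16 probe sets, read 6.35 to 7.04 in mutants and 8.28 to 8.85 in controls (limma adjusted p = 0.183), every mutant below every control, as labelled. Mutant replicate 1 stood apart from the other arrays, with which it correlated at 0.935 to 0.940 over all probe sets, while the highest correlation among the rest was 0.973. Over 17 acute phase genes, which the liver makes in inflammation, the mean log2 signal minus the control mean was 1.78, 0.68 and 0.38 in mutant replicates 1, 2 and 3, and -0.13 to 0.12 in controls. The clock repressor gene Nr1d1 was low in 3 livers, at 7.30 in mutant replicate 1, 8.14 in mutant replicate 2 and 9.13 in control replicate 1. The remaining livers had Nr1d1 at 10.50 to 10.91. Hepatocyte markers such as Alb and Ttr were bright on all arrays, and the mean of the 6 measured markers ran from 13.07 to 13.09 in controls and from 12.87 to 13.21 in mutants. The 10 Kupffer cell and macrophage markers averaged 7.78 to 8.28 in controls and 7.82 to 8.67 in mutants. The 9 neutrophil markers averaged 4.73 to 4.96 and 4.84 to 5.80, with mutant replicate 1 highest in both lists, and 5 of them were dim (a control mean under 5). The 9 stellate cell markers averaged 7.59 to 7.88 in controls and 7.17, 7.47 and 7.66 in mutant replicates 1, 2 and 3. The 8 endothelial markers averaged 8.50 to 9.01 in controls and 8.21 to 9.08 in mutants, with mutant replicate 2 lowest, and the 6 bile duct markers 5.84 to 6.07 and 5.90 to 6.47, with mutant replicate 1 highest. The 7 lymphocyte markers averaged 5.22 to 5.46 and 5.14 to 5.34. The part of these cell types in the receptor signals was not tested. In whole liver, fewer cells of a type and less RNA per cell cannot be told apart.

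None of the 9 receptor genes differed between mutant and control livers past an adjusted p of 0.05 in limma. Across all genes 1 of 15045 (0.00665%) passed. Before adjustment, 0 of the 9 had p under 0.05, beside 4.21% of all genes. The mean was higher in mutants for 4 receptors and lower for 5. Their median difference, mutant minus control, was -0.056 on the log2 scale, beside -0.014 over all genes, and with 1 array left out it ran from -0.23 without control replicate 1 to 0.14 without mutant replicate 2, so its sign rested on single arrays. The groups overlapped in each of the 9 genes. Of all genes, mutants lay below all controls in 4.32% and above them in 5.15%. The differences ran from -0.54 for Ppara to 0.50 for Nr0b2, and the 95% interval of each included 0.

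**Figure D1:**
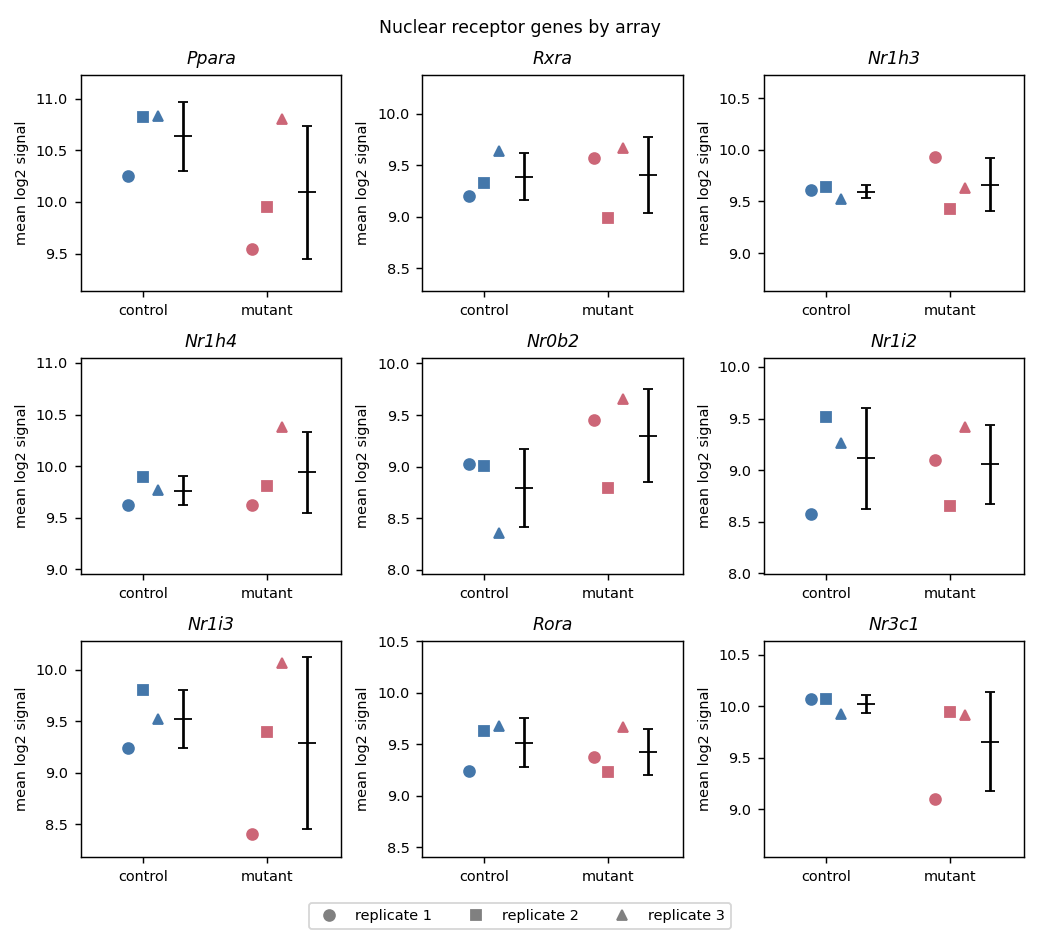
Mean log2 signal of each receptor gene (vertical axis, the same span of log2 units in every panel) in the 3 control (blue) and 3 mutant (red) samples, marked by replicate number; black bars give the group mean and SD. The mutant SD is the larger in 7 of the 9 genes (all but Nr1i2 and Rora). Mutant replicate 1 is the lowest array in Ppara, Nr1i3 and Nr3c1, at 9.54, 8.40 and 9.10. It is also the lowest in Nr1h4 by a small gap, at 9.62, and the highest in Nr1h3, at 9.93.

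The fatty acid receptor gene Ppara had the largest difference of the 9. Its mean over 10 probe sets was 10.25, 10.83 and 10.83 in control replicates 1, 2 and 3, and 9.54, 9.95 and 10.80 in mutant replicates 1, 2 and 3. Mutant replicates 1 and 2 lay below every control, and mutant replicate 3 lay just below the upper 2 controls. The group means were 10.64 ± 0.33 and 10.10 ± 0.64 (SD, n = 3 each), a difference of -0.54 (SE 0.32, 95% interval -1.28 to 0.20; limma adjusted p = 0.943). Without mutant replicate 1 the difference was -0.26. All 10 probe sets had a lower mean in mutants, with differences of -0.82 to -0.25, although probe sets of 1 gene share the same samples. Each of the 10 was below all 3 controls in mutant replicate 1 and again in mutant replicate 2, whereas in mutant replicate 3 the count was 0. Of all probe sets, 36.3%, 30.2% and 18.4% were below the controls in these 3 arrays. The 3 lowest livers for Ppara (mutant replicates 1 and 2 and control replicate 1) were also the 3 lowest for Nr1d1. These 3 arrays also had the lowest medians over all probe sets, and with median centring the difference of Ppara was -0.50. The parts of the clock and of the array-wide level in this spread were not tested.

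Genes that PPARα is known to activate did not pass either. Of 24 measured targets 7 had a higher and 17 a lower mean in mutants, where 52.5% of all genes were lower. The median difference of the targets was -0.15, and 0 of them passed in limma (2 before adjustment, where 4.21% of all genes did). Relative to the control mean, the list stood at -0.62 in mutant replicate 1, -0.22 in mutant replicate 2 and 0.50 in mutant replicate 3. The last was above every control (-0.34 to 0.25). With 1 array left out, the list's median ran from -0.40 without mutant replicate 3 to 0.10 without mutant replicate 1. Hadha, a subunit of the mitochondrial trifunctional protein of fatty acid oxidation, read 11.25 to 11.26 in controls and 10.65 to 10.92 in mutants (-0.45, SE 0.14; limma adjusted p = 0.943). Fgf21, the fasting hormone of liver, read 5.75 to 6.19 in controls and 6.14 to 6.89 in mutants (0.53, SE 0.22). Plin2, a lipid droplet coat protein, was at 10.77 to 10.98 and 11.08 to 11.78 (0.45, SE 0.21). Ehhadh, a peroxisomal oxidation enzyme, differed by -0.62 (SE 0.34), with 10.05 in mutant replicate 1. These 4 had the smallest p-values of the list, and in Hadha the mutants lay below all controls, as in 4.32% of all genes, and in Plin2 above them, as in 5.15%.

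The promoter stretches below belong to Ppara, Nr1i3 and Nr0b2, the 3 receptor genes that varied most over the 6 arrays (ranges of 1.29, 1.66 and 1.30 log2 units). They hold the 250 bases before the annotated start, from RefSeq on GRCm38.p6, a build other than the mm9 named for the arrays. Capitals mark the E-box CACGTG, the motif bound by the clock factors CLOCK and BMAL1.
Ppara (chr15:85735526-85735775, plus strand): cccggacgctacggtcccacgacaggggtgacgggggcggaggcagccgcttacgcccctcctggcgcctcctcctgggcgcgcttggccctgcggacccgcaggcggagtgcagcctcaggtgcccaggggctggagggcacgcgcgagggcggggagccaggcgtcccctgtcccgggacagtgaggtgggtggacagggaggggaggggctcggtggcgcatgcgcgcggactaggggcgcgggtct
Nr1i3 (chr1:171213720-171213969, plus strand): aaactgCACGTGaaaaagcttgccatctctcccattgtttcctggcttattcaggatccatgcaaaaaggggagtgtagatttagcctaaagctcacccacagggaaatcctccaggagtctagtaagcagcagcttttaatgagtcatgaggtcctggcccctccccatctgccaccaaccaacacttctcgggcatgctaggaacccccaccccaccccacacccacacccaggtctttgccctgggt
Nr0b2 (chr4:133553126-133553375, plus strand): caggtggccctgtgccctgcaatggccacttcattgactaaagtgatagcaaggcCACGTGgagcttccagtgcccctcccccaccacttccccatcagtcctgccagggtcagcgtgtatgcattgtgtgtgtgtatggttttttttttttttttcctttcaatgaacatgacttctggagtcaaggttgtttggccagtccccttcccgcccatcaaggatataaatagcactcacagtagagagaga

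Nr1i3 and Nr0b2 each hold 1 E-box in this stretch, its first base lying 244 and 195 bases before the start, and the Ppara stretch holds none. The E-box is its own reverse complement, so both strands were searched at once. It occurred in 6.02% of 32851 such stretches of mouse genes. The receptor core motif AGGTCA, searched on both strands, was in none of these 3 stretches and in 14.0% of all stretches. RefSeq entries were used for 8 of the 9 receptors, some with more than 1 start (10 stretches in all). Nr3c1 was left out of this search, so the counts do not cover it. The E-box was in 2 of the 10, and AGGTCA in 2 others, at 1 start of Rxra and at Nr1h4. A match of letters is a description of the sequence and shows no binding.

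Rxra, the shared partner, had nearly equal group means. It read 9.20, 9.33 and 9.64 in controls and 9.57, 8.99 and 9.67 in mutants over 15 probe sets. Mutant replicate 2 was the lowest array and mutant replicate 3 the highest. The difference was 0.018 (SE 0.22, 95% interval -0.49 to 0.52; limma adjusted p = 0.989), and its sign changed with the array left out, over a range of -0.11 to 0.23. In mutant replicate 2, 12 of the 15 probe sets were below all controls, against 4 in mutant replicate 1 and 1 in mutant replicate 3 (all probe sets 30.2%, 36.3% and 18.4%). Probe set 5453750 had the smallest p within the gene (0.63, SE 0.32; limma adjusted p = 0.994).

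The oxysterol receptor gene Nr1h3 read 9.62, 9.64 and 9.53 in controls and 9.93, 9.43 and 9.63 in mutants over 14 probe sets. The mutants lay on both sides of the closely spaced controls. The difference was 0.068 (SE 0.17, 95% interval -0.32 to 0.46; limma adjusted p = 0.959). Within the gene, probe set 5275783 was 9.59, 9.45 and 9.07 in controls and 8.74, 8.96 and 9.02 in mutants, every mutant below every control (-0.46, SE 0.26; limma adjusted p = 0.994). Relative to the rest of the gene it differed by -0.57 (diffSplice adjusted p = 1). Across all 102 probe sets of the 9 receptors the mutants lay below all controls in 3 and above them in 2, beside 4.44% and 4.01% of all 191663 probe sets.

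LXR targets handle cholesterol efflux and fatty acid synthesis. Of 14 measured, 4 had a higher and 10 a lower mean in mutants, where 52.5% of all genes were lower. The list had a median of -0.12, and 0 of the 14 passed in limma (2 before adjustment, where 4.21% of all genes did). The median ran from -0.26 without mutant replicate 3 to 0.061 without mutant replicate 1, and was 0.041 without control replicate 2. Mlxipl, the carbohydrate-response factor, read 9.18 to 9.54 in controls and 8.91 to 9.02 in mutants (-0.45, SE 0.16). Scd1, the stearoyl-CoA desaturase, read 13.08 to 13.40 and 12.04 to 12.99 (-0.72, SE 0.25). Abca1, a cholesterol exporter, went the other way, at 10.21 to 10.31 in controls and 10.38 to 10.96 in mutants (0.33, SE 0.19). Srebf1, the lipogenic factor, differed by -0.45 (SE 0.28). In Mlxipl and Scd1 the mutants were below all controls, and in Abca1 they were above, as in 4.32% and 5.15% of all genes.

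The bile acid receptor gene Nr1h4 and its repressor partner Nr0b2 had higher means in mutants. Nr1h4 read 9.63, 9.90 and 9.77 in controls and 9.62, 9.81 and 10.38 in mutants over 9 probe sets. Among the mutants, replicate 3 stood above the controls (difference 0.17, SE 0.21, 95% interval -0.32 to 0.67; limma adjusted p = 0.947), and without it the difference was -0.047. In that liver, 8 of the 9 probe sets of Nr1h4 were above all controls, beside 30.9% of all probe sets. In mutant replicates 1 and 2 it was 2 and 1 of the 9, beside 28.1% and 21.2%. Nr0b2 read 9.03, 9.003 and 8.36 in controls and 9.45, 8.79 and 9.66 in mutants. Mutant replicates 1 and 3 lay above all controls and mutant replicate 2 among them. The group means were 8.80 ± 0.38 and 9.30 ± 0.45 (SD, n = 3 each), a difference of 0.50 (SE 0.27, 95% interval -0.12 to 1.13; limma adjusted p = 0.943). This gene has 3 probe sets, the fewest of the 9. Without control replicate 3 the difference was 0.29, and without mutant replicate 2 it was 0.76.

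The list for FXR and SHP held genes of bile acid synthesis and transport and others, such as Sdc1, Fetub, Kng1, Fgfr4 and Klb. Of its 15 measured genes 4 had a higher and 11 a lower mean in mutants (median -0.10, and -0.015 without mutant replicate 1). Of all genes 52.5% were lower. In limma 0 of the 15 passed, and 0 had p under 0.05 before adjustment, which 4.21% of all genes had. Cyp7a1, the rate-limiting enzyme of bile acid synthesis, read 10.97, 8.92 and 9.58 in controls and 9.42, 10.03 and 9.56 in mutants, so the controls spread more than the mutants (-0.15, SE 0.46). Klb, a co-receptor for the hormone that reports bile acids from the intestine, had the smallest p of the list, at 8.70 to 9.05 in controls and 7.18, 8.26 and 8.82 in mutants (-0.78, SE 0.37). Slc51b, a subunit of the basolateral bile acid exporter, was dim and differed by 0.60 (SE 0.32). Baat, which conjugates bile acids, differed by -0.30 (SE 0.21) and Slc10a1, the bile acid uptake carrier, by -0.35 (SE 0.28). Mutant replicate 1 was the lowest array in both, at 10.76 and 11.14. Cyp7a1 was picked after its values were seen.

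The xenobiotic receptor genes differed in how the arrays spread. Nr1i2 read 8.57, 9.51 and 9.26 in controls and 9.10, 8.66 and 9.42 in mutants over 12 probe sets. All 3 mutants lay within the control range (difference -0.056, SE 0.28, 95% interval -0.71 to 0.59; limma adjusted p = 0.980). Nr1i3 had the widest range of the 9, at 9.24, 9.80 and 9.52 in controls and 8.40, 9.40 and 10.06 in mutants over 14 probe sets. Mutant replicate 1 was the lowest and mutant replicate 3 the highest of the 6 arrays, on opposite sides of the controls. Its difference of -0.24 (SE 0.38, 95% interval -1.11 to 0.63; limma adjusted p = 0.951) became 0.21 without mutant replicate 1 and -0.62 without mutant replicate 3.

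The low signal of Nr1i3 in mutant replicate 1 was uneven across the probe sets of the gene. Relative to the control mean, all 14 probe sets were lower there, at -3.73 to -0.15 with a median of -0.73. In 3 of them the signal was lower by over 2 log2 units. Probe set 5021473 read 6.52, 6.90 and 6.72 in controls, 6.53 and 7.81 in mutant replicates 2 and 3, and 2.98 in mutant replicate 1. The last value lies just below the signal minimum of 3. Probe set 4816080 read 9.04 to 9.20 in the controls, 9.06 and 9.10 in mutant replicates 2 and 3, and 6.60 in mutant replicate 1. Probe set 5041660 read 10.88 to 11.18, then 10.97 and 11.00, and 8.64 in the same order. The next lowest probe set stood at -1.45. In mutant replicates 2 and 3 these 3 probe sets were within or above the range of the controls, and no exon usage difference was called for Nr1i3 (diffSplice F-test adjusted p = 1). The positions of the probe sets in the gene were not analysed here. Mutant replicate 1 was also the liver with the highest acute phase level, and the part of inflammation in the Nr1i3 signal was not tested.

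The 3 genes whose profile lay closest to that of Nr1i3 were Acot12, Mamdc2 and Pnma3, by root mean square distance of log2 values centred on each gene's mean (0.080, 0.11 and 0.11 over 6 arrays). Acot12, an acetyl-CoA hydrolase of liver, read 10.26, 10.65 and 10.61 in controls and 9.36, 10.36 and 10.93 in mutants. Mamdc2 was dimmer, at 4.68 to 6.08 over the arrays. Pnma3 lay near the signal minimum of 3, at 3.09 to 3.89 in controls and 2.40 to 4.02 in mutants. The 3 genes were picked from all 15045 over 6 arrays, and their nearness was not tested.

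Known CAR and PXR targets mostly had lower means in mutants. Of 19 measured 3 were higher and 16 lower, with a median of -0.29, whereas 52.5% of all genes were lower. None passed in limma, and 4 had p under 0.05 before adjustment, which 4.21% of all genes had. From the control mean, the list stood at -0.77, -0.54 and 0.049 in mutant replicates 1, 2 and 3, and at -0.40 in control replicate 1. With 1 array left out its median ran from -0.51 without mutant replicate 3 to -0.018 without mutant replicate 1. Cyp2b10, the classical CAR target, read 6.63, 10.15 and 10.77 in controls and 7.41, 6.40 and 7.84 in mutants, so that control replicate 1 sat with the mutants (-1.97, SE 0.96). The P450 gene Cyp2c55 read 7.42 to 8.03 in controls and 5.98, 5.21 and 7.39 in mutants (-1.56, SE 0.48), and its relative Cyp2c37 read 11.15 to 12.25 and 9.67, 9.03 and 11.37 (-1.69, SE 0.55). P450 genes of this family are similar in sequence, and shared probe signal was not tested. Slco1a4, an organic anion carrier, differed by -1.20 (SE 0.46). Alas1, the first enzyme of haem synthesis, was higher in each mutant than in any control, at 9.92, 10.69 and 11.63 in controls and 12.08 to 12.31 in mutants (1.43, SE 0.38; limma adjusted p = 0.943). Such a gap between the groups was seen in 5.15% of all genes, and the reverse, as in Cyp2c55, in 4.32%. Cyp2b10 was picked after its values were seen, and the other 4 had the smallest p of the list.

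The gene mean of Rora read 9.24, 9.63 and 9.68 in controls and 9.38, 9.23 and 9.67 in mutants over 16 probe sets. The groups overlapped almost wholly (difference -0.089, SE 0.19, 95% interval -0.52 to 0.34; limma adjusted p = 0.957). A single probe set, 5204721, deviated from the rest of the gene. It read 3.55, 2.62 and 3.63 in controls and 4.94, 3.87 and 4.71 in mutants, every mutant above every control. Of the 102 receptor probe sets it alone had p under 0.05 before adjustment in limma, which 4.07% of all probe sets did, and its adjusted p was 0.994 (1.24, SE 0.39). At the adjusted threshold 0% of probe sets passed. Relative to the rest of Rora this probe set was 1.42 log2 units higher in mutants. In the diffSplice test of single probe sets that deviation had an adjusted p = 0.0409, where 0.0742% of 172428 probe sets passed. The Simes test of diffSplice, which looks for a deviating probe set in a gene, gave Rora an adjusted p = 0.0476, where 0.908% of 14310 genes passed. By the F-test over the whole gene, the main test of exon usage here, Rora had an adjusted p = 1. With that test 0 of the 9 receptors passed, beside 0.21% of the genes tested. Before adjustment 0 of the 9 had p under 0.05 in the F-test, beside 4% of the genes tested.

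The Rora probe set is dim. Its control mean of 3.27 lies just above the signal minimum of 3 used here, and the brightest probe set of the gene had a control mean of 12.69. The usage call was lost with control replicate 2 or 3 left out (adjusted p = 1 and 0.135), and likewise with mutant replicate 1 or 3 left out (0.445 and 0.0774). The usage difference itself was 1.02, 1.53, 1.16 and 1.44 in those fits, which hold fewer arrays. Over its 10 alternatives the adjusted p ran from 0.00561 to 1. The signal minimum of 5 is not among them, because it removes this probe set (group means 3.27 and 4.51). Rora is known to give several isoforms that differ in their first exons, and which of them this probe set reads was not analysed here.

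**Figure D2:**
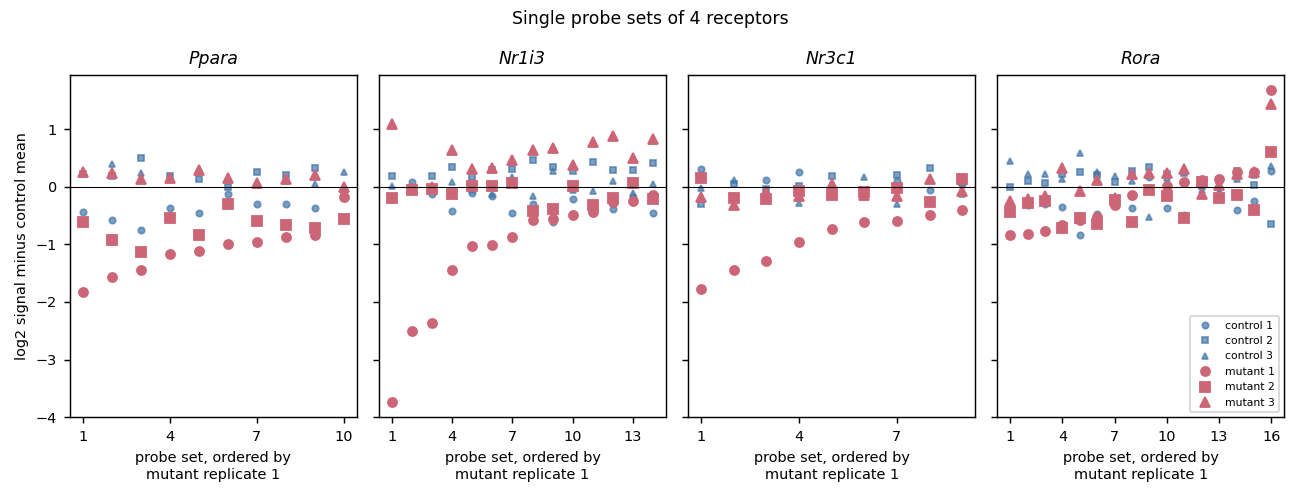
Log2 signal of each kept probe set minus its control mean (vertical axis) for Ppara, Nr1i3, Nr3c1 and Rora, with probe sets ordered by their value in mutant replicate 1 (horizontal axis). In Ppara mutant replicates 1 and 2 are low throughout, in Nr1i3 3 probe sets are low by over 2 in mutant replicate 1, in Nr3c1 mutant replicate 1 is low throughout, and in Rora the probe set at the right is high in the 3 mutants.

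Genes responsive to ROR factors held no call, and Bmal1 and G6pc1 of this list were not measured. Clock, Npas2, Nfil3, Cry1 and Nr1d1 stand both in this list and in the clock list below. Of 10 measured ROR-responsive genes 6 had a higher and 4 a lower mean in mutants. Their median was 0.029 (-0.10 without mutant replicate 2 to 0.15 without mutant replicate 3). Before adjustment 0 of the 10 had p under 0.05 in limma, beside 4.21% of all genes. Cyp7b1, an oxysterol hydroxylase, read 12.41, 11.18 and 11.31 in controls and 12.19 to 12.36 in mutants, with control replicate 1 above all mutants (0.64, SE 0.31). Nr1d1 differed by -1.58 (SE 0.79), its low values being in the 3 livers named above. Cyp8b1, the sterol hydroxylase that makes cholic acid, and the clock activator gene Clock differed by -0.26 (SE 0.26) and -0.14 (SE 0.18). Over 14 measured clock genes 11 had a lower mean in mutants, where 52.5% of all genes did. The median of the clock genes was -0.29 and ran from -0.57 without mutant replicate 3 to -0.14 without mutant replicate 1. None of the 14 passed in limma, and 1 had p under 0.05 before adjustment, which 4.21% of all genes had. From the control mean, the clock list stood at -0.64 and -0.54 in mutant replicates 1 and 2 and at -0.32 in control replicate 1. Beside Nr1d1, its members of smallest p were Bhlhe41 (-0.57, SE 0.24), Tef (-0.56, SE 0.29) and Cry2 (-0.45, SE 0.23), which act as clock repressors or output factors.

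The glucocorticoid receptor gene Nr3c1 was low in 1 liver. Controls read 10.07, 10.07 and 9.92, and mutants 9.10, 9.94 and 9.92 over 9 probe sets. Mutant replicates 2 and 3 lay at the lower edge of the controls, whereas mutant replicate 1 stood at -0.92 from the control mean. The difference was -0.37 (SE 0.24, 95% interval -0.91 to 0.18; limma adjusted p = 0.943), and without mutant replicate 1 it was -0.091. All 9 probe sets had a lower mean in mutants. In mutant replicate 1 all 9 were below every control, at -1.78 to -0.41 from the control mean, beside 36.3% of all probe sets. In probe sets 5430786 and 5483756 the 3 mutants were all below the controls (-0.65 and -0.54), neither past the threshold (limma adjusted p = 0.994 for both). Of all probe sets, 4.44% had every mutant below every control. The gaps were small. In 5430786 mutant replicate 2 stood at -0.20 from the control mean and the lowest control at -0.16. In 5483756 mutant replicate 3 stood at -0.098 and the lowest control at -0.076.

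Targets of the glucocorticoid receptor had another order of arrays. Over 17 measured targets, mutant replicate 1 stood at 0.47 from the control mean and mutant replicate 2 at -0.45, while the controls ran from -0.72 to 0.54. Before adjustment 0 of the 17 had p under 0.05 in limma, beside 4.21% of all genes. Of the 17, 10 had a higher and 7 a lower mean in mutants (median 0.047). That median turned with the array left out, from -0.36 without control replicate 1 to 0.26 without mutant replicate 2, and was -0.043 without mutant replicate 1. Fkbp5, a co-chaperone induced by the receptor and picked after its values were seen, read 8.34, 9.57 and 10.49 in controls and 9.60, 7.67 and 9.85 in mutants. By smallest p the list was led by the serine breakdown gene Sds (-0.41, SE 0.21), the transaminase gene Got1 (-0.71, SE 0.41), Tdo2 of tryptophan breakdown (-0.36, SE 0.21) and Igfbp1, a secreted binder of insulin-like growth factors (0.88, SE 0.54). In the 11 genes for receptor chaperones, the steroid-binding protein and ligand-forming enzymes the differences ran from -0.43 to 0.20. Their median was 0.026 (-0.048 without mutant replicate 1 to 0.047 without control replicate 3). Before adjustment 0 of the 11 had p under 0.05 in limma, beside 4.21% of all genes. Hsd11b1, which regenerates active glucocorticoid in liver, read 10.30 to 10.51 in controls and 9.52, 10.37 and 10.49 in mutants (-0.29, SE 0.26). Its low array, mutant replicate 1, was the low array of Nr3c1. Serpina6, the blood carrier of glucocorticoid, differed by -0.23 (SE 0.19), and the chaperone genes Hspa8 and Fkbp4 by 0.20 (SE 0.19) and -0.10 (SE 0.14).

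**Figure D3:**
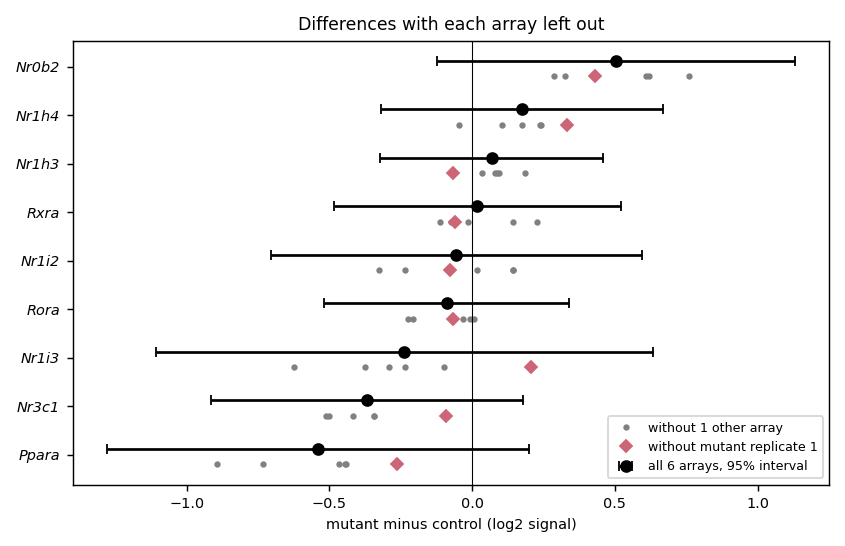
Difference between group means (mutant minus control, log2 signal) for each receptor with its 95% interval from limma (black), and the difference with 1 array left out (grey, with mutant replicate 1 left out in red). Every interval includes 0, and leaving out mutant replicate 1 moves Nr1i3 from -0.24 to 0.21 and Nr3c1 from -0.37 to -0.091.

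The 3 mutant livers differed in which receptors lay outside the range of the controls, at shares to be read against those of all genes. Mutant replicate 1 was below all controls for 4 of 9 receptors (Ppara, Nr1h4, Nr1i3 and Nr3c1), as were 39.1% of all genes, and above them for 2 (Nr1h3 and Nr0b2), as were 28.4%. For mutant replicate 2 the count was 4 below (Ppara, Rxra, Nr1h3 and Rora), beside 31.3% of all genes, and 0 above, beside 22.1%. For mutant replicate 3 it was 1 below (Nr3c1), beside 16.7%, and 4 above (Rxra, Nr1h4, Nr0b2 and Nr1i3), beside 35.5%. Read against these shares, the counts show nothing particular to the receptors. Some also rest on small gaps: Nr1h4 was 9.624 in mutant replicate 1 and 9.628 in the lowest control, and Nr3c1 was 9.919 in mutant replicate 3 and 9.922 in the lowest control. Averaged over the 9 genes, mutant replicates 1, 2 and 3 stood at -0.25, -0.24 and 0.32, while the controls ran from -0.17 to 0.15.

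The rest of the nuclear receptor superfamily had as many genes higher as lower. Of 36 other members measured 18 had a higher and 18 a lower mean in mutants (median -0.0074; -0.028 without mutant replicate 1 to 0.0075 without mutant replicate 3), and 0 passed in limma (3 before adjustment, where 4.21% of all genes did). Esr1, the oestrogen receptor gene, read 7.96 to 8.41 in controls and 8.52 to 8.80 in mutants (0.47, SE 0.17). The orphan receptor gene Nr2c2 read 7.90 to 8.14 and 7.24 to 7.71 (-0.48, SE 0.17). The thyroid hormone receptor gene Thra (-0.46, SE 0.19) and the retinoic acid receptor gene Rara (-0.34, SE 0.15) had every mutant below every control. Over the 36 genes, mutants lay below all controls in 3 and above them in 2, beside 4.32% and 5.15% of all genes. Hnf4a, which sets hepatocyte identity and was picked after its values were seen, read 11.25 to 11.30 in controls and 10.94 to 11.75 in mutants.

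Coregulators, the proteins through which receptors act on chromatin, mostly had lower means in mutants. Of 20 measured 3 were higher and 17 lower, with a median of -0.23, whereas 52.5% of all genes were lower. None of the 20 passed in limma, and 2 had p under 0.05 before adjustment, which 4.21% of all genes had. With 1 array left out the median ran from -0.34 without mutant replicate 3 to -0.13 without mutant replicate 1. Ppargc1b and Ppargc1a, coactivators of oxidative metabolism, differed by -0.73 (SE 0.24) and -1.10 (SE 0.48). Ppargc1b read 7.16, 7.67 and 7.90 in controls and 6.69, 6.64 and 7.22 in mutants. Sirt1, a deacetylase that acts on several receptors, read 8.40 to 8.70 and 7.55 to 8.30 (-0.54, SE 0.22), and the corepressor gene Nrip1 differed by -0.32 (SE 0.18). Relative to the control mean, the coregulator list stood at -0.43 in mutant replicate 1, -0.39 in mutant replicate 2 and -0.29 in control replicate 1. These are the 3 livers with low Nr1d1 and with the lowest array medians. In mutant replicate 3 the list stood at -0.0044.

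**Figure D4:**
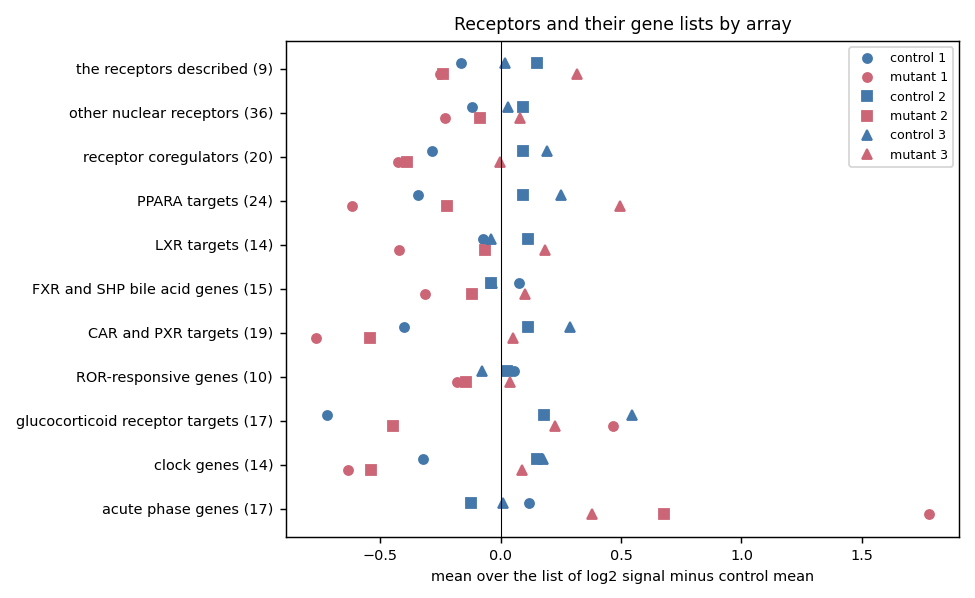
Mean over each gene list of log2 signal minus the control mean (horizontal axis), by array, for the 9 receptors and 10 gene lists (the number of measured genes in brackets). Control replicate 1 and mutant replicates 1 and 2 lie to the left for clock genes, coregulators, PPARA targets and CAR and PXR targets. They are also the lowest arrays for the 9 receptors, other nuclear receptors and LXR targets. For LXR targets the gap is small, with mutant replicate 2 at -0.064 and control replicate 3 at -0.039. Those arrays also have the lowest medians over all probe sets. Mutant replicate 1 lies far to the right for acute phase genes, at 1.78.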

How the data were processed

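The table, as deposited, gives a log2 signal for 204531 probe sets on 6 arrays. Per the submitters' processing notes, the tools were Affymetrix Expression Console 1.1, RMA and Partek 6.4 and the build was mm9, with no role stated. RMA draws array-wide differences together and compresses those of dim probe sets. Kept were 191663 probe sets with a mean of 3 or more in a group (12868 were left out), among them all 102 of the receptors. A gene's value is the mean of at least 2 kept probe sets with 1 gene symbol. Of 16139 symbols, 13995 matched RefSeq as they stood, 2104 through a synonym and 40 not at all. Genes of a list without such probe sets were not analysed here, and some lists share genes. Levels are not compared between genes.

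Differences are mutant minus control and come from limma 3.58.1 (lmFit, eBayes) run in R 4.3.3. P-values were adjusted by Benjamini-Hochberg over every feature tested, and 0.05 was the threshold. For exon usage, the diffSplice F-test was run in genes with at least 3 kept probe sets. An exact two-sided permutation test of 3 against 3 samples cannot go below 0.1. The steps were run on simulated data in which probe sets varied independently. Probe sets of a gene share the same samples in the real data, so the simulation does not show the precision reached here. The receptors and lists were chosen with earlier results of these data known. Named were all receptors, the 4 genes of smallest p in each receptor list, and the 3 genes nearest in profile to the receptor of widest range. The alternatives were other signal minimums, scaling, summaries, moderation, array weights, a replicate block and leaving out each array. With 3 arrays per group, their number limits the precision.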

Additional observations from a re-analysis of the deposited data

How the results depend on the processing

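No receptor passed the limma threshold under any of 15 alternatives (lowest adjusted p = 0.552, Ppara without mutant replicate 3). Ppara, Nr0b2 and Nr3c1 kept their direction in all 15, with ranges of -0.89 to -0.26, 0.29 to 0.76 and -0.51 to -0.091. Before adjustment, Ppara had p under 0.05 in limma with array weights, with the replicate block and without mutant replicate 3, where 8.09%, 5.94% and 9% of all genes did. Nr0b2 had it without mutant replicate 2 (5.47% of all genes), and no receptor did under the other 11 alternatives. With array weights the median was -0.20 for the receptors and -0.21 for the glucocorticoid receptor targets. The sign of Rxra turned at a signal minimum of 5 (-0.014), with the median of probe sets (-0.16) and with array weights (-0.20), that of Nr1i2 with the median of probe sets (0.0070) and that of Nr1h3 with array weights (-0.040). With 1 array left out, Rxra ran from -0.11 to 0.23, Nr1i2 from -0.33 to 0.14, Nr1h3 from -0.067 to 0.19, Nr1h4 from -0.047 to 0.33, Nr1i3 from -0.62 to 0.21 and Rora from -0.23 to 0.0081. The causes were not tested.

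The count of all genes past the threshold, 1 in the reported fit, was 0 with no signal minimum, 2 with quantile normalization, 2 with median centring, 0 with no eBayes, 2 with array weights, 0 with the replicate block and 0 to 3 with 1 array left out. The median of the chaperone and ligand enzyme list was -0.10 with array weights, and that of the ROR-responsive genes ran from -0.10 to 0.15 with 1 array left out. With the Simes test 1 receptor, Rora, was called for exon usage. The labels do not say whether the replicate numbers pair the samples. Deviations from the group means of same-numbered samples correlated at 0.098, -0.11 and 0.18 across genes. Genes are not independent, so these values cannot settle the pairing. Quantile normalization and median centring moved the median of all genes from -0.014 to 0.019 and 0.032.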
